A study of Mus musculus with 9 samples.

Results

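Fxyd2, Cldn11, Slco4a1, Sema4a, Nup210 and Kirrel were chosen by their values in these same libraries, as genes high in cultured synovial macrophages and near 0 in cultured synovial fibroblasts that are not classical macrophage markers. They are 6 of the 23420 genes in the table, and the choice used no stated numerical threshold. The values went against this description for 1 of the 6. Kirrel was the reverse, with 0 to 3 reads in the macrophage libraries and 1113 to 1561 reads in the fibroblast libraries, so 5 genes were restricted to the macrophages and Kirrel to the fibroblasts. Since macrophage and fibroblast values chose the genes, their differences between these cell types are given as a description without a test.

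RNA was measured in 9 libraries of cells cultured from C57BL/6 mouse ankles at passage 1, 3 libraries in each of 3 groups. Arthritis tissue-derived synovial macrophages (ADSM) and arthritis tissue-derived synovial fibroblasts (ADSF) were grown from arthritic ankles of the collagen antibody-induced arthritis (CAIA) model, in which 5 mg of antibody against type II collagen was followed by 50 µg of LPS on day 3 and the tissue was taken on day 10, and normal tissue-derived synovial fibroblasts (NDSF) came from ankles without arthritis. Fibroblasts were the cells that attached to collagen, whereas ADSM were the cells left on plain plastic after 1 to 2 weeks of culture and removal of fibroblasts with trypsin. No macrophages from normal ankles were among the libraries, so arthritis and the macrophages cannot be told apart in ADSM. The methods name a different library kit for NDSF than for the other groups, whereas the deposited labels give 1 kit for all 9 libraries. If the kits differed, kit cannot be told apart from ankle state in ADSF against NDSF, nor from cell type in NDSF against ADSM. The cultures were stated to come from independent ankles, without saying which animal gave which library, so a p-value here reflects only library-to-library spread.

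The libraries held 2380483 to 3351184 reads assigned to genes, and 1 read corresponded to 0.854 to 1.24 on the scale of the table, in which reads are divided by a trimmed mean of M values (TMM) factor per library. The 8 measured macrophage markers, such as Csf1r, the receptor for macrophage colony-stimulating factor, and Cd68, a lysosomal protein, summed to 15839 to 17616 in ADSM, 286 to 538 in ADSF and 373 to 719 in NDSF. The 9 fibroblast markers summed to 44.4 to 100 in ADSM and at least 69490.2 in every fibroblast library. Complement C1q, which many tissue macrophages make, was however nearly absent from ADSM, where its chains C1qa, C1qb and C1qc had means of 0.346, 0.623 and 0.312, against 46.5, 61.6 and 45.5 in ADSF. The libraries also differed in sex-linked transcripts. From the Y chromosome, Uty, Kdm5d, Ddx3y and Eif2s3y had 146, 267, 370 and 479 reads over the 3 ADSM libraries and 0 reads in each of the 6 fibroblast libraries, while Xist, transcribed from the inactive X, averaged 2.07 for ADSM but 2815 for ADSF and 2090.3 for NDSF. The methods describe female mice. A difference in the sex of the source and the difference in cell type therefore cannot be told apart in any comparison with ADSM. NDSF library 3 stood apart from the other NDSF libraries, with a chi-square per degree of freedom of 21.0 and 16.5 against them, compared with 1.71 between NDSF libraries 1 and 2.

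Several of the 6 genes are best known from other tissues. FXYD2 is the gamma subunit that adjusts the sodium pump in kidney tubules, claudin-11 forms the tight junctions of myelin and of Sertoli cells, and SLCO4A1 is an organic anion transporter that carries thyroid hormone. SEMA4A is a membrane-bound semaphorin that acts on plexins and on T cells, NUP210 is a membrane-spanning protein of the nuclear pore, and KIRREL, also called NEPH1, is an adhesion protein of the podocyte slit diaphragm. A nuclear pore protein and a sodium pump subunit belong to assemblies found in every cell, whereas tight junctions and slit diaphragms join epithelial cells.

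Sequence around these genes is shown to place what was measured. Fxyd2 lies on the plus strand at chr9:45399709-45410278 (mm10) and was also followed by RT-qPCR in the study. The primers, printed 5′ to 3′ with the bases that lie in exon 3 of transcript Fxyd2-201 in capitals, were matched to GENCODE M21 transcripts.
Fxyd2 forward primer: atcccttcgagtacgACTATGAA
Fxyd2 reverse primer: cagcggaaccttttgcTGAGA
The forward primer spans the junction of exons 2 and 3 of the 6 exons of Fxyd2-201 (chr9:45408130-45408307) and the reverse primer that of exons 3 and 4 (chr9:45408370-45409528), both within the coding sequence. They enclose 106 bases of transcript, match 8 of the 13 annotated Fxyd2 transcripts and occur together in transcripts of 0 other genes.

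The table of RefSeq promoters (GRCm38.p6) holds 5 of the 6 genes, and Fxyd2 is not in it. It lists 4 promoters for Sema4a and 2 for Slco4a1. Only the one nearest the start in the expression table was searched. The 250 bases upstream of the start of Sema4a, Nup210 and Kirrel are printed as examples with and without a PU.1 core and with few or many CpG dinucleotides. Capitals mark GAGGAA, the core that PU.1, the lineage factor of macrophages, can bind, on either strand in Sema4a, and CpG dinucleotides in Nup210 and Kirrel.
Sema4a (chr3:88461183-88461432, minus strand): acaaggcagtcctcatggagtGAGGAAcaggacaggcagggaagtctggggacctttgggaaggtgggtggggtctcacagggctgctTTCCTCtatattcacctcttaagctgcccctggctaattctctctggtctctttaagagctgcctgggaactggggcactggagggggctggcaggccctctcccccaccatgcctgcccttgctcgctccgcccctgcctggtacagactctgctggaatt
Nup210 (chr6:91116827-91117076, minus strand): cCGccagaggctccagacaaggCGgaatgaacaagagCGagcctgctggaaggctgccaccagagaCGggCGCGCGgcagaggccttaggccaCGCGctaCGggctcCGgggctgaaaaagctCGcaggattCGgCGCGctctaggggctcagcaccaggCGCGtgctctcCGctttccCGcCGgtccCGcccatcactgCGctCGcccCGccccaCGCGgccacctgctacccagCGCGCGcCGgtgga
Kirrel (chr3:87174538-87174787, minus strand): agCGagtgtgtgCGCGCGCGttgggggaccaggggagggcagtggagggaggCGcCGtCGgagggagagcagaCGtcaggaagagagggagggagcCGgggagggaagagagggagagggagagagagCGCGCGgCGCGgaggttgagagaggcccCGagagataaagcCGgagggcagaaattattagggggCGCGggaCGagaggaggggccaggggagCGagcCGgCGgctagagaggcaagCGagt
Of the 5 sequences, that of Sema4a held 2 matches to GAGGAA or its complement, 229 to 224 and 162 to 157 bases before the start, and the other 4 held 0. Among 32851 promoters of the same length, 23.3% held this core. The C/EBP letters TTGCNNCAA or TTGCNNAA were in 11.1% of promoters, the AP-1 letters TGANTCA in 6.75% and the TATA box TATAAA in 12.4%, on either strand, and none of these was in the 5 sequences. No pair of these motifs overlapped in them. The sequences of Nup210, Kirrel and Cldn11 were rich in CpG, with 30, 24 and 19, and those of Slco4a1 and Sema4a were not, with 4 and 2, against a median of 6.00 over all promoters. The start of Kirrel in the promoter table lies 210 bases from that in the expression table, and the other starts were identical.

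Fxyd2 was the most abundant per length of the 5 macrophage genes. Its values were 2456, 1480.1 and 2055 in ADSM libraries 1 to 3, 0.993, 3.73 and 3.61 in ADSF and 5.52, 4.99 and 1.88 in NDSF. Every ADSM library was far above every fibroblast library, and the ADSF and NDSF ranges overlapped. The fibroblast values stood for 7 reads over 3 ADSF libraries and 13 over 3 NDSF libraries, against 6500 reads in ADSM. The level was 588-fold higher in ADSM than in both fibroblast groups together, with an exact 95% counting interval of 380.4 to 963. In FPKM, which divides by transcript length and library size, Fxyd2 averaged 1225 ± 305 (SD, n = 3) in ADSM, rank 87 of 23351 genes, and 1.74 ± 0.754 in ADSF (n = 3).

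Slco4a1 was the next most abundant. Its values were 1705, 1751 and 1703 in ADSM, 4.96, 4.98 and 2.40 in ADSF and 3.68, 5.99 and 0.939 in NDSF, so the ADSM libraries were close to each other and the fibroblast groups overlapped. There were 5505 reads in ADSM and 11 in each fibroblast group, which gave a 453-fold difference (counting interval 299 to 723). The FPKM value was 189 ± 4.16 in ADSM, rank 436, and 0.491 ± 0.174 in ADSF.

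Cldn11 had 920.0, 677 and 784 in ADSM, 0, 1.24 and 0 in ADSF and 0.920, 0 and 0 in NDSF. A single read was found in each fibroblast group, and 4 of the 6 fibroblast libraries had none. The ratio of 2568 reads in ADSM to 2 in the fibroblasts was 2323 after normalization, with a wide counting interval of 642 to 19190.2. In FPKM, Cldn11 averaged 157 ± 21.9 in ADSM, rank 536.

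Sema4a and Nup210 were lower in ADSM than the other macrophage genes in FPKM, at 56.4 ± 6.01 (rank 1450) and 19.4 ± 0.142 (rank 3782). Sema4a had values of 548, 531 and 449.6 in ADSM, 0, 2.49 and 0 in ADSF and 2.76, 3.00 and 2.82 in NDSF. Here the 3 NDSF libraries, with 3 reads each, lay above the 3 ADSF libraries, with 2 reads in all. The difference between ADSM and both fibroblast groups was 269-fold (counting interval 149.9 to 539.7). Nup210 had 403, 396 and 393 in ADSM, 0, 0 and 1.20 in ADSF and 0.920, 2.00 and 1.88 in NDSF, a difference of 384-fold (counting interval 176 to 1049) from 1275 reads against 6. The reads of Nup210 in the fibroblasts were 1 in ADSF and 5 in NDSF, and these groups overlapped.

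Kirrel had 0, 1.04 and 2.80 in ADSM, 1430.3, 1385 and 1434 in ADSF and 1357, 1405 and 1465 in NDSF. The 6 fibroblast libraries formed 1 narrow range, and the ADSF and NDSF values were interleaved. The 8189 fibroblast reads against 4 in ADSM gave a level 1132-fold higher in the fibroblasts (counting interval 442 to 4155). In FPKM, Kirrel averaged 0.0613 in ADSM and 69.0 in ADSF, rank 1216.

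**Figure D1:**
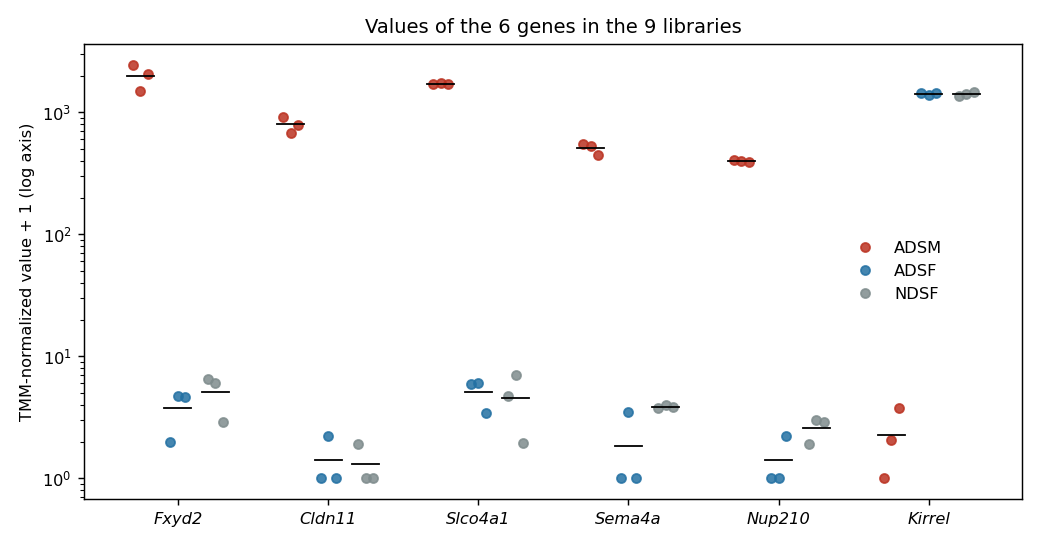
TMM-normalized value + 1 on a log axis for the 6 genes, with 1 point per library and a black line at the mean of each group of 3. The ADSM points of Fxyd2, Cldn11, Slco4a1, Sema4a and Nup210 lie at 393 or above and the fibroblast points at 5.99 or below, and Kirrel shows the reverse.

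The genes differed in how far the libraries of the high group varied. The coefficient of variation over the ADSM libraries was 24.6% for Fxyd2 and 15.4% for Cldn11, with library 2 the lowest and library 1 the highest for both. It was 10.4% for Sema4a, with library 3 the lowest. Slco4a1 and Nup210 varied by 1.58% and 1.25%, below the 2.34% and 4.86% that counting reads alone would give. Among 4750 genes with at least 100 in every ADSM library the median was 9.04%, and 96.8% of them varied less than Fxyd2. Kirrel varied by 2.74% over the 6 fibroblast libraries, near its counting error of 2.72%, against a median of 14.2% for 4568 genes with at least 100 in all 6.

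The pattern was uncommon among genes expressed in ADSM. Of the 4750 genes, 62 stayed at 10 or below in all 6 fibroblast libraries, and Fxyd2, Slco4a1, Cldn11, Sema4a and Nup210 stood at ranks 1, 3, 5, 14 and 51 of these 62 by FPKM in ADSM. The opposite pattern, at least 100 in every fibroblast library and 10 or below in every ADSM library, held for 485 genes, with Kirrel at rank 148 by FPKM in ADSF.

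Macrophage core genes were detected in the fibroblast libraries, at higher shares of their ADSM level than these 5 genes. The source of those reads was not tested. The C1q chains and Mrc1, higher in both fibroblast groups than in ADSM, did not share the order of the other core genes. Mrc1 averaged 1.26 in ADSM, 17.6 in ADSF and 76.1 in NDSF. In bulk RNA, fewer macrophages and less RNA per macrophage cannot be told apart. For 12 macrophage core genes with a mean of at least 100 in ADSM, such as Lyz2, Tyrobp and Cd53, the median level in a fibroblast library was 1.87 to 5.67% of the ADSM mean, and the lowest of the 12 in each library was 0.470 to 2.03%. The highest of Fxyd2, Cldn11, Slco4a1, Sema4a and Nup210 was 0.289 to 0.588%, below the lowest core gene in each of the 6 libraries. This order describes genes picked for low values in fibroblasts and was not tested.

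**Figure D2:**
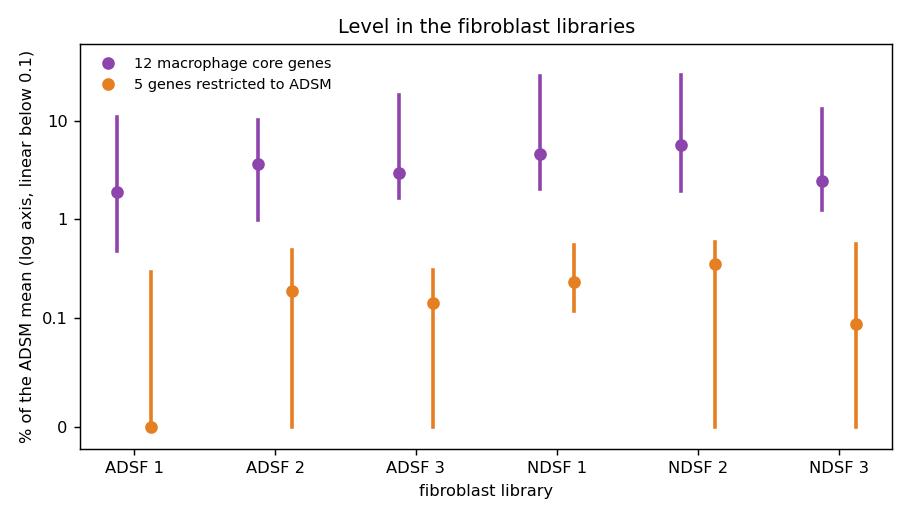
Percent of the ADSM mean measured in each fibroblast library, on an axis that is logarithmic above 0.1 and linear below, for 12 macrophage core genes and for the 5 genes restricted to ADSM. Points are medians and lines run from the lowest to the highest gene, and the lines of the core genes, from 0.470% upwards, do not reach those of the 5 genes in the same library.

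The genes with the most similar values over the 9 libraries, by Euclidean distance of log2(value + 1), were partly the same genes. The distance was taken over those of the 11889 tested genes that have an official name. Fxyd2 and Slco4a1 were each nearest to the other, at a distance of 1.95, and Cx3cr1, a chemokine receptor of macrophages, came next for both, with means of 1345 in ADSM, 4.80 in ADSF and 3.77 in NDSF. Parvg, a parvin of blood cells that links integrins to actin, was among the 3 nearest of Cldn11, Sema4a and Nup210, with means of 883, 0.816 and 1.27. The nearest to Nup210 was Plcb2, a phospholipase C of blood cells, at 0.971, and the nearest to Sema4a was St8sia4, a polysialyltransferase, at 2.25. The other near genes were Kbtbd11 for Fxyd2, Slc6a12 for Slco4a1, Mycn and Slfn4 for Cldn11 and Slc16a12 for Nup210. Kirrel was nearest to the fibroblast genes Fkbp10, Grb10 and Thy1. A gene high in 3 libraries and near 0 in 6 resembles many others, and 706 to 2329 of the 11889 genes had a Pearson correlation over 0.95 with a given one of the 6 over the 9 libraries, which share the same split of cell types.

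The neighbours on the chromosome mostly did not follow. Fxyd6, a brain member of the same family whose gene ends 3550 bases before Fxyd2, had 0 in all 3 ADSM libraries, 24.8, 34.9 and 25.2 in ADSF and 220.0, 208 and 77.0 in NDSF, the opposite pattern to Fxyd2. Tmprss13, 4833428L15Rik and Dscaml1 on either side of them had 0 in all 9 libraries. Next to Sema4a, Pmf1, a kinetochore gene 25646 bases away, was higher in ADSM with a mean of 321, against 60.4 in ADSF and 60.2 in NDSF, while Slc25a44 and Lmna were expressed in every group. Gm6307 next to Slco4a1 averaged 32.4 in ADSM and 0 and 0.973 in the fibroblasts, Mir133a-2 had a mean of 0.881 in ADSM, Ntsr1 had 0 throughout and Mrgbp was expressed in every group. Beside Cldn11, Skil and Prkci were expressed in every group, Kcnmb2 had 0, and Slc7a14 averaged 54.6, 23.8 and 12.2 in ADSM, ADSF and NDSF. Beside Nup210, Fbln2, a matrix protein, averaged 12.7 in ADSM and 11865 in ADSF, Hdac11 0.908 and 22.5, Slc41a3 8.64 and 46.4, and Iqsec1 160.3 and 254. Of the genes beside Kirrel, Cd1d1 averaged 0.312 in ADSM, 20.2 in ADSF and 42.7 in NDSF, Fcrls and Cd5l stayed at means of 4.06 or below and Cd1d2 had 0. No gene of the table overlapped any of the 6.

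Near-0 values in both ADSF and NDSF were part of how the genes were chosen, so these groups are set side by side for the 6 genes without a test. Over 3 libraries each, ADSF and NDSF held 7 and 13 reads of Fxyd2, 11 and 11 of Slco4a1, 1 and 1 of Cldn11, 2 and 9 of Sema4a and 1 and 5 of Nup210. Kirrel had 3747 and 4442 reads, with means of 1417 in ADSF and 1409 in NDSF.

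The families and partners of the 6 genes show how far the pattern was shared. They were described from 6 lists with the 6 genes themselves left out, 150 genes together, of which 93 passed the filter on low values. Over all 11889 genes, the share called was 41.0% with ADSF the higher group and 30.1% with ADSM the higher, and against NDSF it was 43.3% with NDSF and 32.0% with ADSM the higher. Of the 93, 41 were higher in ADSF and 32 in ADSM (44.1% and 34.4%), and 41 were higher in NDSF and 43 in ADSM (44.1% and 46.2%). Both comparisons use the same ADSM libraries.

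In the sodium pump family, all 7 tested genes differed between ADSM and each fibroblast group, 4 higher in ADSM and 3 higher in the fibroblasts. The beta subunit Atp1b3 was lower in ADSF than in ADSM, with a log2 fold change of -1.26 (SE 0.0910, adjusted p = 3.11e-07), with means of 1045 in ADSM and 436 in ADSF. Fxyd5, or dysadherin, another small regulator of the pump, averaged 1736 in ADSM, 209.7 in ADSF and 126 in NDSF, with a log2 fold change of -3.03 (SE 0.205, adjusted p = 1.88e-07).

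The subunits higher in the fibroblasts were Atp1b1, Fxyd1 and Fxyd6. Atp1b1, the most widespread beta subunit, had 0 in all ADSM libraries and 46.7, 47.3 and 36.1 in ADSF, at least 46.0-fold above the level that 3 reads over the ADSM group would give (adjusted p = 4.56e-07). Fxyd1, or phospholemman, averaged 0.312, 18.8 and 109 in ADSM, ADSF and NDSF. It was lower in ADSF than in NDSF (-2.44, adjusted p = 0.00401), as was Fxyd6 (-2.40, adjusted p = 0.00258). Fxyd1 and Fxyd6 were lowest among NDSF in library 3. In FPKM, Fxyd2 was at 1225 in ADSM, Fxyd5 at 619 and Atp1b3 at 212.

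**Figure D3:**
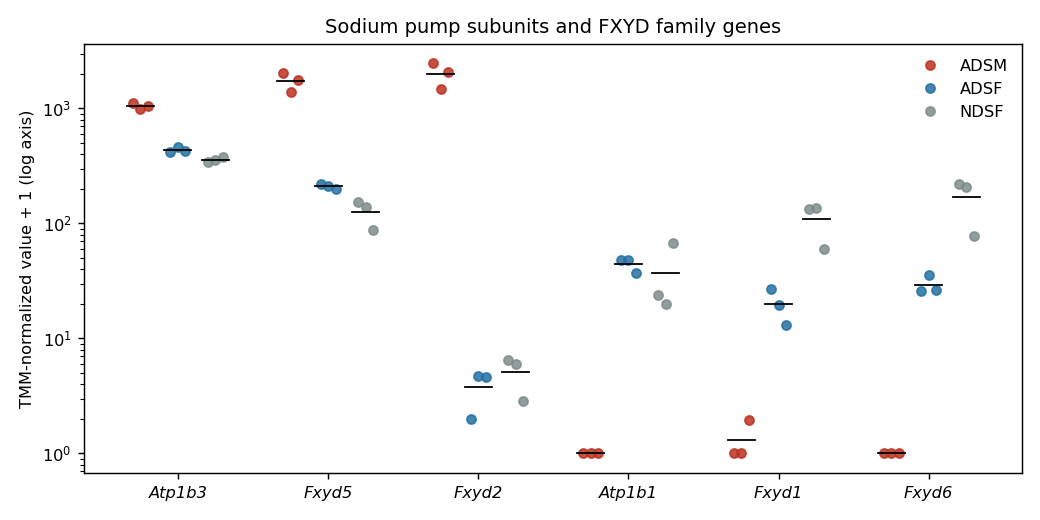
TMM-normalized value + 1 on a log axis for 5 sodium pump and FXYD genes that passed the filter and for Fxyd2, with 1 point per library and lines at group means. Atp1b3, Fxyd5 and Fxyd2 lie higher in ADSM, and Atp1b1, Fxyd1 and Fxyd6 lie higher in the fibroblasts.

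Of the 32 claudin and tight junction genes other than Cldn11, 7 passed the filter, with 5 higher in each fibroblast group, and 10 had 0 reads in all 9 libraries. Tjp1, the scaffold protein ZO-1 that binds claudins inside the cell, went the other way from Cldn11, with 0.854, 0 and 0 in ADSM, 648, 519 and 423 in ADSF and 454, 459 and 351 in NDSF (ADSF against ADSM 8.73, SE 0.263, adjusted p = 3.44e-10). Jam3, a junctional adhesion molecule, averaged 1.25, 146 and 129 in ADSM, ADSF and NDSF (6.05, adjusted p = 1.25e-09), and Tspan3, a tetraspanin that binds claudin-11, averaged 170.3, 621 and 496 (1.86, adjusted p = 3.18e-07). Cldn12 averaged 23.3, 121 and 89.6 (2.33, adjusted p = 3.63e-07). Jam2 was higher in ADSM than in ADSF (-1.19, adjusted p = 0.0104) and lower in ADSF than in NDSF (-1.85, adjusted p = 0.00610), with means of 34.6, 14.4 and 57.0. Cldn1 had 0 in ADSM and means of 2.35 and 18.5, and it was lower in ADSF than in NDSF (-2.69, adjusted p = 0.00303). Among the 22 claudins measured, the FPKM in ADSM was 157 for Cldn11, 2.23 for Cldn12 and 0.317 or below for the others.

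Among 23 organic anion transporter and thyroid hormone genes besides Slco4a1, 10 were tested, and 7 were higher in each fibroblast group. Slco2a1, a prostaglandin transporter, had 0 in ADSM, 264, 288 and 353 in ADSF and 118, 137 and 185 in NDSF, at least 320.1-fold and 155-fold above the level of 3 reads over ADSM (adjusted p = 1.51e-10 and 3.32e-10). Slco3a1, another family member, averaged 0.346, 72.1 and 89.2 in ADSM, ADSF and NDSF (5.85, adjusted p = 1.52e-08). Dio3, which inactivates thyroid hormone, averaged 0.596 in ADSM, 707 in ADSF and 455 in NDSF (8.82, adjusted p = 3.18e-09). Thra, a thyroid hormone receptor, averaged 19.9, 170 and 375, higher in ADSF than in ADSM (3.07, adjusted p = 4.42e-07) and lower in ADSF than in NDSF (-1.13, adjusted p = 0.00850). The gene higher in ADSM than in both fibroblast groups, as Slco4a1 was, was Slc16a10, a transporter of aromatic amino acids and thyroid hormone, with 328, 375 and 293 in ADSM, 11.9, 11.2 and 12 in ADSF and 29.4, 37.0 and 16.9 in NDSF (-4.70, SE 0.256, adjusted p = 3.09e-08).

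The semaphorin list had 29 of its 33 genes tested, of which 18 were higher and 9 lower in ADSF than in ADSM, and 18 higher and 9 lower in NDSF. The 7 class 3 semaphorins, which are secreted, were each higher in both fibroblast groups. Sema3f, for example, had 0 in ADSM and means of 96.5 in ADSF and 193 in NDSF (adjusted p = 1.73e-09). Of the class 4 semaphorins that Sema4a belongs to, Sema4d, which acts on plexin B1, had 454, 479.5 and 346 in ADSM, 14.9, 48.5 and 13.2 in ADSF and 8.28, 4.0 and 4.69 in NDSF (-4.24, SE 0.432, adjusted p = 5.47e-06). Sema4b was higher in ADSM as well (means 89.3, 31.4 and 28.5, adjusted p = 0.000273), and Sema4c was higher in ADSF (21.8, 63.7 and 91.4, adjusted p = 0.000127). Sema4g did not pass in ADSF against ADSM (adjusted p = 0.251) and was higher in ADSM than in NDSF (-1.40, adjusted p = 0.0198). Sema6b was higher in ADSM, with means of 77.2, 9.62 and 31.1 (-2.92, adjusted p = 9.11e-06). Sema5a was higher in ADSM than in ADSF (means 75.2 and 16.9, adjusted p = 0.000267) but not than in NDSF (mean 95.8, adjusted p = 0.454).

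The receptors were divided between the cell types. Cd72, an inhibitory receptor for SEMA4D on B cells and macrophages, averaged 979.7 in ADSM, 12.3 in ADSF and 21.8 in NDSF (-6.21, SE 0.260, adjusted p = 3.65e-09). Havcr2, or TIM-3, an inhibitory receptor of the family whose mouse member TIM-2 binds SEMA4A, averaged 114, 8.17 and 8.27 (-3.82, adjusted p = 1.59e-05). Plxnc1, a plexin that binds SEMA7A, averaged 271, 67.8 and 48.3 (-2.02, adjusted p = 6.73e-05), and Nrp2, a coreceptor for class 3 semaphorins, 1822, 417 and 867 (-2.12, adjusted p = 8.96e-07). Plxna1 was higher in the fibroblasts, with 141, 163 and 140.2 in ADSM, 1426, 1408 and 1654 in ADSF and 787, 765 and 936 in NDSF (3.33, SE 0.115, adjusted p = 9.12e-10), and Plxna4 had 0 in ADSM and means of 51.4 and 52.5 (adjusted p = 2.34e-09). Plxnb2 was expressed at similar means of 1933, 1683 and 1505, without passing in ADSF against ADSM (adjusted p = 0.0801), and it passed in NDSF against ADSM (-0.36, adjusted p = 0.00472). Plxnd1, a plexin that binds SEMA4A in mouse, was higher in ADSM than in ADSF (means 443 and 136, adjusted p = 0.000167) but not than in NDSF (mean 399, adjusted p = 0.491).

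**Figure D4:**
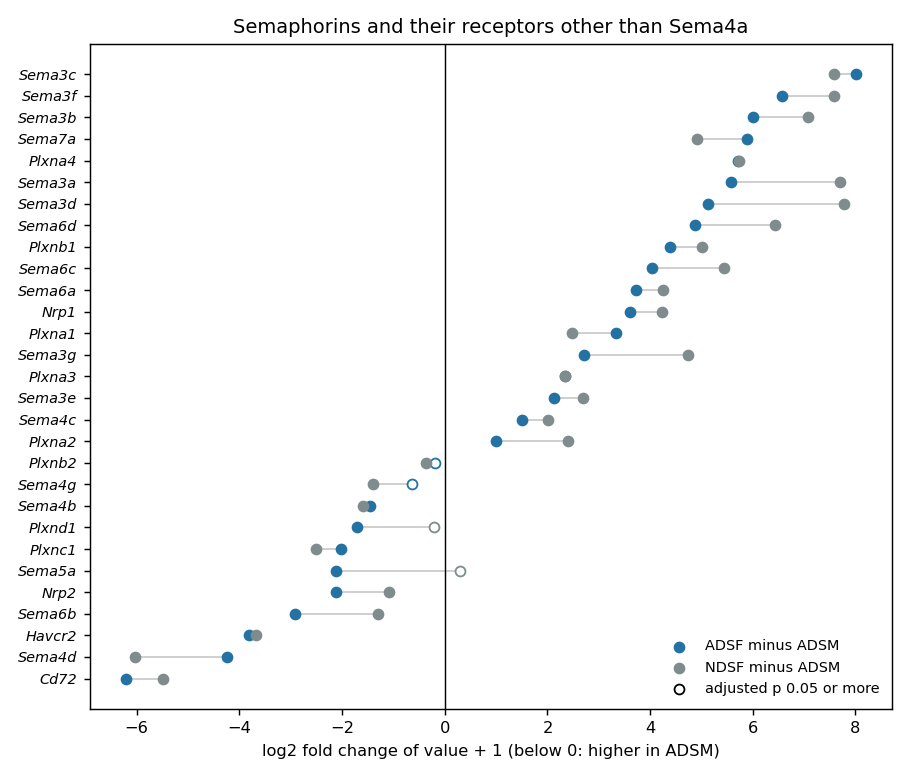
Log2 fold change of value + 1 for ADSF minus ADSM and NDSF minus ADSM of the 29 semaphorin and receptor genes tested, where points left of 0 are higher in ADSM and open points have an adjusted p of 0.05 or more. Class 3 semaphorins lie to the right, and Cd72, Sema4d and Havcr2 lie farthest to the left.

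Except for Nup210l, which was low, the other nuclear pore genes were expressed in all 3 groups, unlike Nup210. All 30 that were measured passed the filter, and the other 3 names of the list are newer symbols for Tmem48, Nupl1 and Nupl2, which were measured. Against ADSM, 14 of the 30 were lower in ADSF and 2 were higher, and in NDSF 25 were lower and 2 were higher. The number higher in ADSF was 6 without NDSF library 3, with upper-quartile scaling or with only the 2 groups in the model. The median log2 fold change of the list was -0.53 for ADSF and -1.05 for NDSF against ADSM, beside 0.14 and 0.18 for all genes tested. Nup205, a scaffold protein of the inner ring, had 893, 754 and 852 in ADSM, 386, 497 and 392 in ADSF and 212, 264 and 368 in NDSF (ADSF against ADSM -0.98, SE 0.184, adjusted p = 0.000654). Nup62, of the central channel, averaged 463, 197 and 181 (-1.23, adjusted p = 7.14e-05), Nup214, on the cytoplasmic face, 416, 217 and 186 (-0.94, adjusted p = 7.06e-05), and Nup188 489.6, 306 and 232 (-0.68, adjusted p = 0.000250). Tmem48, like Nup210 a membrane-spanning pore protein, averaged 284, 153 and 117 (-0.90, adjusted p = 0.0126), and the third such protein of the list, Pom121, averaged 201, 164 and 144 and did not pass in ADSF against ADSM (adjusted p = 0.211), but it was lower in NDSF than in ADSM (-0.47, adjusted p = 0.0488). Nup210l, the closest relative of Nup210, known from testis, had low means of 13.9, 2.71 and 5.99 (-2.02, adjusted p = 0.000374). The genes higher in both fibroblast groups were Tpr (583, 976 and 823, adjusted p = 0.000434) and Ahctf1 (215, 422 and 304, adjusted p = 0.000619). Where these genes differed from ADSM they did so by up to 2.02 on the log2 scale. That value was of Nup210l, with 45 reads in ADSM and 7 in ADSF, where the scale understates fold changes. Nup210 itself differed by 1275 reads against 6.

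**Figure D5:**
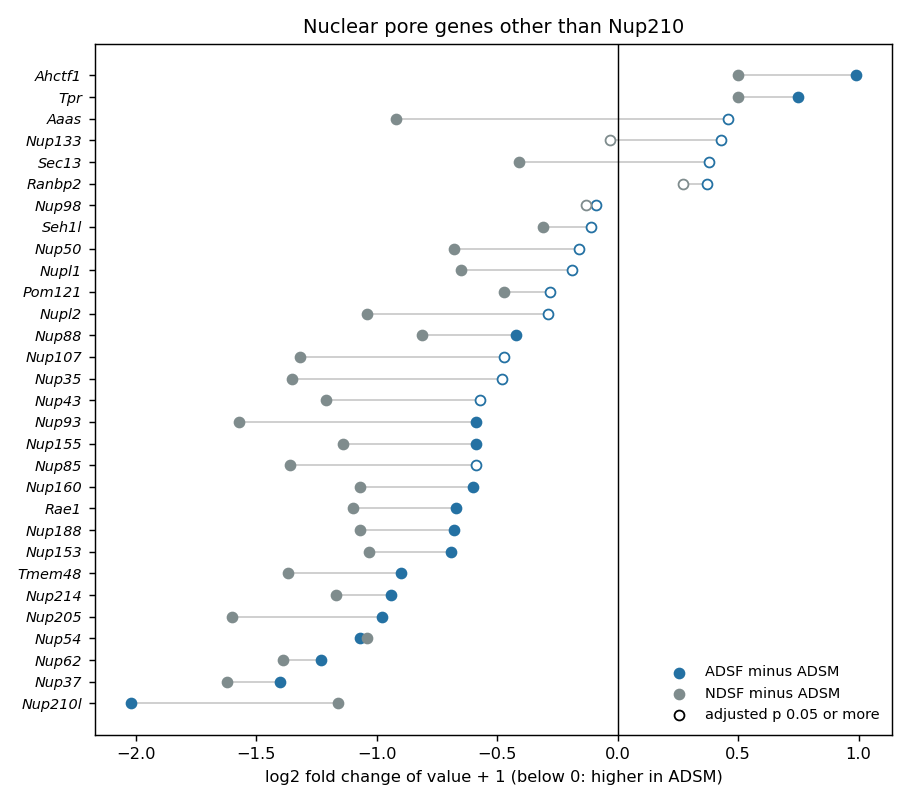
Log2 fold change of value + 1 for ADSF minus ADSM and NDSF minus ADSM of the 30 nuclear pore genes other than Nup210, where points left of 0 are higher in ADSM and open points have an adjusted p of 0.05 or more. Most points lie between -1.62 and 0. Ahctf1, Tpr and Ranbp2 lie to the right of 0 in both comparisons, with open points for Ranbp2.

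Nuclear pore genes also differed between the fibroblast groups, with 10 of 30 higher in ADSF than in NDSF and 0 lower. Over all 11889 genes tested by limma, 9.88% were higher in ADSF and 11.3% were higher in NDSF at an adjusted p under 0.05. Aaas had 209, 259 and 216 in ADSF and 71.8, 66.9 and 136 in NDSF (1.38, SE 0.230, adjusted p = 0.00339), and Nup93, of the inner ring, had 293, 347 and 291 against 142, 128 and 206 (0.99, SE 0.164, adjusted p = 0.00335). The number higher in ADSF depended on the libraries. It was 22 without NDSF library 3, 3 without NDSF library 1, 3 without NDSF library 2, 3 without ADSF library 2, 5 without ADSF library 3, 6 without ADSF library 1 and 5 without ADSM library 3, and it was 4 with only the 2 fibroblast groups in the model. The 7 skeletal muscle markers, among them Acta1, Des and Myog, were all detected in NDSF and summed to 605 to 1420.0 in NDSF and 61.0 to 106 in ADSF. The 5 endothelial markers, among them Pecam1 and Cdh5, summed to 133 to 378 in NDSF and 50.5 to 59.6 in ADSF. Birc5, Ube2c and Stmn1, genes of dividing cells, were highest among NDSF in library 3, where Birc5 had 176 against 78.2 and 71.9 in NDSF libraries 1 and 2 and 161, 222 and 126 in ADSF. The log2 fold changes of Stmn1, Birc5 and Ube2c for ADSF against NDSF were 0.06, 0.72 and 0.71 (adjusted p = 0.871, 0.116 and 0.182). Without NDSF library 3 they were 0.33, 1.13 and 1.18 (adjusted p = 0.110, 0.00191 and 0.00442). The part of muscle, endothelial and dividing cells in the nuclear pore differences was not tested. Of all 93 family genes, 17 were higher in ADSF and 22 in NDSF, or 18.3% and 23.7%.

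The slit diaphragm list of Kirrel had 11 of 17 genes tested, with 7 higher in each fibroblast group and 2 higher in ADSM. Nphs1, or nephrin, was hardly present in any group and averaged at most 1.89, and Kirrel2 and Trpc6 had 0 in all 9 libraries. Some other genes of the list were expressed in all 3 groups. Cd2ap, for example, averaged 226 in ADSM, 193 in ADSF and 204 in NDSF. Kirrel3 had 0 in ADSM, 10.9, 14.9 and 21.6 in ADSF and 2.76, 4.99 and 6.57 in NDSF, and it was higher in ADSF than in NDSF (1.55, adjusted p = 0.0155), a call lost without ADSF library 3 and without NDSF library 1 or 2. Tjp1, whose protein binds KIRREL as well as claudins, was restricted to the fibroblasts as given above. Synpo, an actin-binding protein, averaged 73.1, 547 and 429.7 in ADSM, ADSF and NDSF (2.90, adjusted p = 3.71e-08), Nck2, an adaptor, 1.29, 46.7 and 62.7 (4.39, adjusted p = 1.28e-07), and Actn4, which crosslinks actin, 1169, 3283 and 1855 (1.49, adjusted p = 2.92e-05). The genes higher in ADSM were Ptpro, a receptor tyrosine phosphatase, with 155, 157 and 149 in ADSM, 5.96, 3.73 and 3.61 in ADSF and 7.36, 7.99 and 2.82 in NDSF (-4.85, SE 0.338, adjusted p = 2.31e-07), and Grb2, an adaptor used in every cell, with means of 438, 224 and 251 (-0.96, adjusted p = 9.11e-05). Cd2ap and Myo1e did not pass in either comparison with ADSM.

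Markers of kidney, epithelium and Sertoli cells were at or near 0 in ADSM, and those of myelinating cells were not. The 10 kidney markers, 4 of which, including Umod and Slc34a1, had 0 in all 9 libraries, summed to 0 to 2.08 in the ADSM libraries, and the 6 epithelial markers to 0. The 4 Sertoli cell markers summed to 0.935 to 8.30. The 7 oligodendrocyte and Schwann cell markers summed to 392 to 483 in ADSM, 406 to 606 in ADSF and 562 to 870.0 in NDSF. Mbp, a myelin protein also made in other cells, averaged 387, 18.2 and 22.0 in ADSM, ADSF and NDSF, and Mag, a myelin glycoprotein, had 45, 2 and 4 reads. Pmp22 averaged 30.4, 511 and 711, while Mog and Sox10 had 0 in ADSM. The part of such cells in the values of Cldn11 was not tested.

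Fxyd2 is also 1 of the synovial macrophage subset markers that the study looked up, and the other 14 did not move as a block. Of the 9 tested, 4 were higher and 3 lower in ADSF than in ADSM. Without ADSF library 2 the lower genes numbered 5. Cx3cr1 shared the pattern of Fxyd2, with 1095, 1758 and 1180.5 in ADSM, 1.99, 11.2 and 1.20 in ADSF and 7.36, 3.00 and 0.939 in NDSF (-8.25, adjusted p = 5.57e-07). Stmn1 and Birc5, genes of dividing cells, averaged 911 and 344 in ADSM and 292 and 169.5 in ADSF (adjusted p = 4.37e-05 and 0.00964). Aqp1, a water channel, had 0 in ADSM and means of 251 in ADSF and 606 in NDSF, at least 267-fold and 643-fold above the level of 3 reads over ADSM (adjusted p = 1.93e-10 and 7.26e-11). Sparc, Ctsk and Ccl7 were higher in the fibroblasts too, with means of 26717, 500.4 and 364 in ADSF against 22.8, 2.86 and 1.48 in ADSM. Retnla had 0 in all 9 libraries, and H2-Eb1, H2-Ab1, Ccl8 and Vsig4 had 0 in ADSM.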

How the data were processed

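RNA was measured in 9 libraries, 3 each of ADSM, ADSF and NDSF, grouped by the deposited labels. The authors mapped reads to mm10 with TopHat, and Cufflinks is also named, without versions. The values used here are a deposited signal, in which the authors scaled each library’s read counts by its TMM factor. A smaller table holds the same for ADSM and ADSF, with 140514 of 140514 shared values equal. FPKM values were deposited by the authors for ADSM and ADSF and ranked genes within a group. No source used here names the counting tool or says if it used strand, and reads of near copies or overlapping genes may be shared. Deposited columns of the authors' own comparisons, with fold changes, p-values or q-values, were not used. Unused columns of sample values numbered 0.

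All 210780 of 210780 values were whole multiples of the value of 1 read within 0.001, which gave the recovered reads. Depth was 2380483 to 3073890 reads in ADSM, 2580998 to 3220692 in ADSF and 3142495 to 3351184 in NDSF. Intervals are exact at 95% and cover counting error only.

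Differences were tested with limma 3.58.1 (R 4.3.3) on log2(value + 1) with a variance trend and a mean per group, over 11889 genes with at least 10 in at least 3 libraries, with Benjamini-Hochberg adjustment and a threshold of 0.05. For low genes this scale understates fold changes. edgeR 4.0.16 and DESeq2 1.42.0 on the recovered reads, other pseudocounts, scalings and filters and omission of each library were alternatives. The pipeline was tested on simulated data. The 6 genes and all lists were chosen with earlier results of these data known. Named genes were the 6 and, per list, those with the smallest adjusted p, 4 in ADSF against ADSM and 2 in ADSF against NDSF. Genes of a list higher in ADSM than in both fibroblast groups were named too. So were the 3 nearest genes with an official name by Euclidean distance, the 2 neighbours on each side, and core, subset and marker genes. Some of these are counted and not named, and the values of some genes are not reported here. Other genes were named after their values were seen, to complete a family. Coordinates are those of the table, promoters are from RefSeq (GRCm38.p6) and transcripts from GENCODE M21. Replicate numbers are not stated to pair libraries, so the main model did not pair them.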

Additional observations from a re-analysis of the deposited data

How the results depend on the processing

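The log2 ratio of the ADSM mean to the mean of the 6 fibroblast libraries (value + 1) was 8.81 for Fxyd2, 9.19 for Cldn11, 8.48 for Slco4a1, 7.49 for Sema4a, 7.64 for Nup210 and -9.28 for Kirrel, and no alternative changed a sign. A pseudocount of 5 gave 7.89, 7.22, 7.61, 6.23, 6.07 and -7.82, and the FPKM table gave 8.81, 7.19, 7.0, 5.71, 4.32 and -6.04. That table holds ADSM and ADSF but not NDSF, and the 1 is added to FPKM, so these ratios are of other groups on another scale. With a library left out, the ratio ran from 8.63 to 8.98 for Fxyd2, 9.07 to 9.39 for Cldn11, 8.31 to 8.61 for Slco4a1, 7.31 to 7.61 for Sema4a, 7.50 to 7.79 for Nup210 and -9.86 to -8.92 for Kirrel. Genes called between ADSF and NDSF numbered 2518 and ran from 952 to 4255 with a library left out. They numbered 4255 without NDSF library 3, 952 without NDSF library 2, 1072 without NDSF library 1, 1191 without ADSF library 2 and 1297 without ADSF library 3. The family genes called in this comparison numbered 39 and ran from 17 to 57 with a library left out, and 26 were called with only the 2 fibroblast groups in the model. Counts of calls against ADSM over all genes and over all family genes stayed within 1.5 times of the main count under every alternative run, but those of single families did not. With a replicate block, 2307 genes and 39 family genes were called between ADSF and NDSF. The deviations of same-numbered libraries correlated by -0.140 to 0.178. With 3 libraries per group, this cannot tell whether the numbers pair the libraries. Upper-quartile scaling moved the median log2 fold change of all genes from 0.14 to 0.25 for ADSF and from 0.18 to 0.34 for NDSF against ADSM, and nuclear pore genes higher in ADSF than in ADSM then numbered 6 in place of 2, as they did without NDSF library 3 and in a model of those 2 groups alone. They numbered 4 with a pseudocount of 5. With no filter on low values, claudin and tight junction genes higher than in ADSM numbered 8 for ADSF and 12 for NDSF in place of 5. Of 72 results for single genes between ADSF and NDSF, 40 kept their call under every alternative, as did 68 of 72 for ADSF and 69 of 72 for NDSF against ADSM. Fewer than 14 reads in a fibroblast group lay behind each value of the 5 macrophage genes there, which limits what can be told of ADSF and NDSF.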
